A study of Homo sapiens with 14 samples.

Results

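TRPC4 and POSTN are neighbours on human chromosome 13. In xenografts of a human bladder cancer line both were below every control library in all libraries labelled FASN knockdown. The gap was wide for TRPC4 but narrow between some libraries for POSTN. Another 5 genes a little further along the chromosome were expressed throughout, at levels that mostly overlapped. The 7 genes described here are TRPC4, POSTN, SUPT20H, ALG5, EXOSC8, SPART and RFXAP, taken by symbol from the 62749 genes of the deposited tables, and all 7 were among the 22560 genes with enough counts to be tested (TRPC4 and POSTN through their control libraries). They were selected on earlier values of the same knockdown comparisons, so the difference between knockdown and control is given below for these genes as a description, with no test. The effect of the smoke exposure was not used to choose the genes and is tested. Genes of the same pathways and of the chromosome that are none of the 7 are tested as well, in lists drawn up with earlier results known.

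RNA was sequenced from frozen xenograft tissue of UMUC3, an established bladder cancer line of human origin, engrafted into mice. FASN encodes fatty acid synthase, which makes palmitate. Control cells carried a control construct (control sh in the titles) and knockdown cells were labelled FASN KD; method, number of clones and host strain: not given in the sources used here. Cells were kept before engraftment in regular medium (control, n = 3; FASN knockdown, n = 3) or in medium with 10% CSM, which the titles call smoke (control CSM, n = 4; FASN knockdown CSM, n = 4). Nothing in the labels ties each library to its own animal, so p-values measure only the spread between these libraries.

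Total counts ran from 15810287 to 45209466 per library, and 7SL RNA took 2.64% to 25.6% of them, with over 15% in FASN knockdown replicate 2 and control CSM replicate 3. Relative to the control mean, FASN itself was at 26.7%, 22.1% and 29.1% in the 3 knockdown libraries in regular medium (edgeR quasi-likelihood log2 fold change -1.94, SE 0.33, Benjamini-Hochberg adjusted p = 0.0245, and 0.0549 to 0.137 with any 1 library left out). After CSM it stood at 50.9%, 38.5%, 69.8% and 111% of the control CSM mean in replicates 1 to 4 (log2 fold change -0.57, SE 0.28, edgeR adjusted p = 0.288). The library labelled FASN knockdown CSM replicate 4 thus held as much FASN RNA as the controls. Without it the FASN log2 fold change after CSM was -0.90 (SE 0.25, edgeR adjusted p = 0.108), and 143 rather than 264 genes of the whole table were called after CSM. Of the defining markers of the labelled tissue, the simple-epithelium keratins KRT8 and KRT18 were at means of 92.6 and 146 CPM (counts scaled to a common library size), UPK3A and KRT20 of differentiated urothelium were at 0 in every library, and EPCAM never passed 3 counts.

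TRPC4 is a subunit of a cation channel of the plasma membrane that opens after G protein-coupled receptors activate phospholipase C, and it lets in sodium and calcium. POSTN encodes periostin, a secreted matrix protein with fasciclin domains that binds integrins and collagens and is usually made in quantity by fibroblasts of tumours and healing tissue. The other 5 genes serve general functions of the cell. SPART encodes spartin, which takes part in endosome and lipid droplet turnover, RFXAP a subunit of the RFX complex at MHC class II promoters, ALG5 the dolichyl-phosphate glucosyltransferase of N-glycan assembly, EXOSC8 a ring subunit of the RNA exosome, and SUPT20H a subunit of the SAGA coactivator.

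In build GRCh38 (GENCODE release 29) the genes lie within 1.57 Mb of chromosome 13. POSTN spans 37562583 to 37598844 and TRPC4 spans 37636636 to 37870425, both on the minus strand, with 37.8 kb between them. SUPT20H (37009312 to 37059713, minus strand) ends 502.9 kb before POSTN. EXOSC8 (36998816 to 37009613, plus strand) overlaps SUPT20H by 302 bases and ALG5 (36949775 to 37000261, minus strand) by 1446 bases. These are overlaps of GENCODE gene spans. From the RefSeq starts used below, ALG5 and EXOSC8 would not share bases. The sources used here do not say whether reads were counted by strand, so reads in those overlaps cannot be split with certainty. RFXAP (36819224 to 36829104, plus strand) and SPART (36301638 to 36370180, minus strand) lie 733.5 kb and 1192.4 kb before POSTN, and SPART overlaps the antisense gene SPART-AS1. No tested gene lies between POSTN and TRPC4, and the nearest tested genes on either side are the noncoding LINC00547, 11.0 kb before POSTN, and LINC02334, 64.1 kb after TRPC4.

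POSTN and TRPC4 start in different kinds of sequence. The 30 bases shown run from base 40 to base 11 before the RefSeq start (assembly GRCh38.p14), 5′ to 3′ on the gene's own strand, for POSTN at chr13:37598779-37598808 on the minus strand, TRPC4 at chr13:37869783-37869812 on the minus strand, SUPT20H at chr13:37059699-37059728 on the minus strand and RFXAP at chr13:36819182-36819211 on the plus strand. RefSeq starts differ from the GENCODE gene ends given above, so the bases shown for POSTN and TRPC4 lie inside those GENCODE spans. Another choice of start would show other bases. Capitals mark the motif TATAAA in POSTN and CG dinucleotides in the other 3. They are shown to set the 2 genes that were low together beside each other and beside 2 nearby genes that were not.
POSTN: tctgacatgtaTATAAAttctgagctctcc
TRPC4: cctcccatggcttCGctttcagagcatcct
SUPT20H: cccttcCGccCGccttcccCGcccctCGgc
RFXAP: CGCGggCGtacacaCGctgaCGCGcaggct

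Over the 250 bases before the start, POSTN held 1 CG dinucleotide and a GC content of 36.4%, more CG than 6.06% of the 35116 RefSeq promoters, whose median was 11. TRPC4 held 17 with 67.2% GC and SUPT20H 21 with 67.6% GC. RFXAP held 24, EXOSC8 23, ALG5 28 and 22 at its 2 starts, and SPART 5, 12 and 35 at its 3 starts. TATAAA, searched on both strands, occurred 2 times before POSTN, 0 times before TRPC4 and 2 times before EXOSC8, and 10.7% of all promoters hold it at least once. GGGCGG, also searched on both strands, occurred 3 times before TRPC4 and 4 times before SUPT20H and was absent from the POSTN window; 42.6% of promoters hold it. These matches describe the letters only.

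TRPC4 RNA was present in every control library and close to absent in every knockdown library. In the control group it was at 11.8, 16.1 and 10.5 CPM, and after CSM at 8.62, 5.07, 10.4 and 9.34 CPM. Knockdown libraries in regular medium held 0.175, 0 and 0.116 CPM, which are 5, 0 and 4 counts. Knockdown libraries after CSM held 6 counts in replicate 1 (0.177 CPM) and 0 counts in replicates 2, 3 and 4. The lowest control library, control CSM replicate 2, therefore stood at 5.07 CPM and the highest knockdown library at 0.177 CPM, and the groups did not overlap in either medium.

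Summed over libraries, the TRPC4 counts were 1495 in control against 9 in knockdown, 105-fold lower per read of the TMM-scaled libraries (95% exact interval 55.4 to 231, counting error only). After CSM they were 1227 against 6, 207-fold lower (94.8 to 565). The fitted log2 fold changes were -6.75 (SE 0.86) in regular medium and -7.53 (SE 0.79) after CSM and depend on how counts of 0 are handled, which the pooled counts do not. Without the 6 counts of FASN knockdown CSM replicate 1 the fitted value after CSM became -11.17, since the other 3 libraries had none. A count of 0 allows up to 3 counts, which is 0.254 CPM in FASN knockdown replicate 2, the shallowest library. FASN knockdown CSM replicate 4, in which FASN was at the control level, also held 0 counts of TRPC4, and without it the fitted value after CSM was -7.01.

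POSTN was lower in the knockdown libraries too, but varied far more among the controls. Its control levels were 13.4, 18.3 and 49.2 CPM, and after CSM 1.88, 15.8, 2.33 and 54.9 CPM. In the knockdown libraries in regular medium it was at 0.385, 1.19 and 0.495 CPM. After CSM the knockdown libraries held 0.0591, 0.615, 1.46 and 0.102 CPM. Control CSM replicates 1 and 3 were the low controls, and the lowest of them, at 1.88 CPM, was still above the highest knockdown library, at 1.46 CPM. Groups did not overlap within either medium, but the gap after CSM was narrow.

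The pooled POSTN counts were 3113 against 42 in regular medium, 47.0-fold lower (34.7 to 65.4, counting error only), and 2979 against 77 after CSM, 39.2-fold lower (31.2 to 49.8). Fitted log2 fold changes were -5.41 (SE 1.33) and -5.08 (SE 1.11). The wide errors follow the spread among libraries: over the 7 control libraries the coefficient of variation was 96.0% for POSTN and 32.6% for TRPC4, and the highest control exceeded the lowest 29.2-fold for POSTN and 3.18-fold for TRPC4. In FASN knockdown CSM replicate 4 POSTN stood at 0.102 CPM, or 5 counts, and without that library the fitted value after CSM was -4.68. In bulk tissue, fewer cells carrying a transcript and less transcript per cell cannot be told apart.

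**Figure D1:**
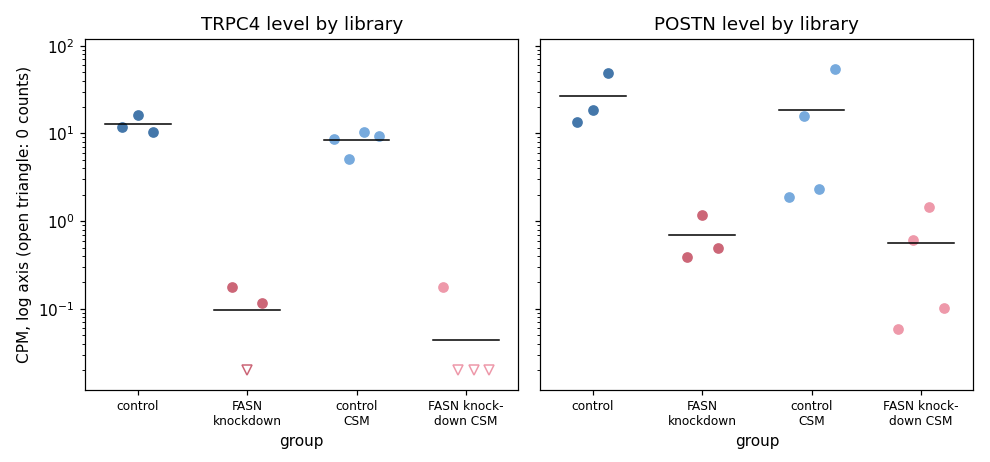
Level of TRPC4 (left) and POSTN (right) in each of the 14 libraries, in CPM on a log axis, by group; filled points are libraries, open triangles libraries with 0 counts placed at the bottom, and black lines group means. All 7 controls lie above all 7 knockdown libraries for both genes, and the POSTN controls spread from 1.88 to 54.9 CPM while the TRPC4 controls stay between 5.07 and 16.1 CPM.

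Scaled by length, TRPC4 and POSTN were at a few units in control tissue, below 4 of the other 5 genes. In TPM, which scales counts by transcript length and then by library, TRPC4 was at 2.29 ± 0.411 (SD, n = 3) in control and 1.38 ± 0.452 (SD, n = 4) in control CSM libraries, and POSTN at 6.16 ± 4.44 (n = 3) and 4.94 ± 6.49 (n = 4). The SPART, EXOSC8 and SUPT20H levels in control libraries were 24.7 ± 3.68, 18.4 ± 0.422 and 20.5 ± 4.12 TPM (SD, n = 3), and ALG5 was at 10.2 ± 1.97 TPM. RFXAP was the scarcest, at 1.45 ± 0.135 TPM. In order of the control mean the genes run SPART, SUPT20H, EXOSC8, ALG5, POSTN, TRPC4 and RFXAP; the values of SPART and SUPT20H overlapped, as did those of SUPT20H and EXOSC8 and those of ALG5 and POSTN, while the other neighbours in that order did not overlap.

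Several transcripts made up each gene's counts. TRPC4-206, the longest at 7979 bases, took 47.0% of the TRPC4 counts over the 7 controls (29.9% to 58.0% in single libraries) and held all 15 counts of the knockdown libraries. TRPC4-202, TRPC4-201 and TRPC4-203 followed with 15.3%, 12.0% and 10.9% and were each absent from some controls. POSTN was divided among POSTN-201 (33.8%), POSTN-202 (27.2%), POSTN-209 (20.8%) and POSTN-204 (16.2%), and each of these was at 0 in at least 1 control. The 46 counts of POSTN-202 in FASN knockdown CSM replicate 3 were most of that library's 52 POSTN counts. Such shares are estimates of the quantification program from reads that mostly fit several transcripts.

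The 5 nearby genes were expressed in every library and their knockdown and control levels mostly overlapped. SUPT20H was at 38.2, 45.5 and 46.8 CPM in control and 45.2, 44.0 and 24.7 CPM in knockdown libraries. After CSM it was at 45.8, 41.3, 55.2 and 46.1 CPM in control and 30.1, 40.9, 40.9 and 39.9 CPM in knockdown libraries. The CSM groups of SUPT20H did not overlap, by a gap of less than 1 CPM. Its log2 fold change was -0.20 (SE 0.23) in regular medium and -0.31 (SE 0.20) after CSM.

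EXOSC8 was at 30.1, 33.4 and 31.8 CPM in control libraries, the tightest group of the set, and at 35.4, 38.0 and 22.2 CPM in knockdown libraries. After CSM the controls held 29.5, 25.0, 54.4 and 34.2 CPM and the knockdown libraries 26.2, 34.8, 32.6 and 36.0 CPM. The groups overlapped in both media, with log2 fold changes of 0.00 (SE 0.28) and -0.14 (SE 0.24). ALG5, whose GENCODE span shares bases with that of EXOSC8, was at 21.5, 18.8 and 17.3 CPM in control and 28.2, 29.1 and 13.3 CPM in knockdown libraries. After CSM its controls held 17.6, 21.2, 34.1 and 21.0 CPM and its knockdown libraries 18.3, 20.1, 25.8 and 22.03 CPM. Its groups overlapped as well, with log2 fold changes of 0.29 (SE 0.30) and -0.12 (SE 0.26).

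SPART was the most abundant of the 7 genes and had the most negative change among the 5. Control libraries held 67.8, 114.7 and 98.1 CPM and knockdown libraries 92.8, 92.3 and 44.0 CPM. After CSM the controls held 59.4, 69.6, 107 and 95.04 CPM and the knockdown libraries 47.2, 85.1, 55.2 and 45 CPM. The groups overlapped in both media (log2 fold changes -0.29, SE 0.33, and -0.51, SE 0.29). RFXAP, the least abundant, was at 4.29, 5.24 and 4.29 CPM in control and 5.15, 7.20 and 1.83 CPM in knockdown libraries. After CSM it was at 3.73, 4.06, 6.44 and 4.50 CPM in control and 4.82, 5.20, 4.35 and 5.24 CPM in knockdown libraries, and its log2 fold changes were 0.02 (SE 0.40) and 0.07 (SE 0.34).

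**Figure D2:**
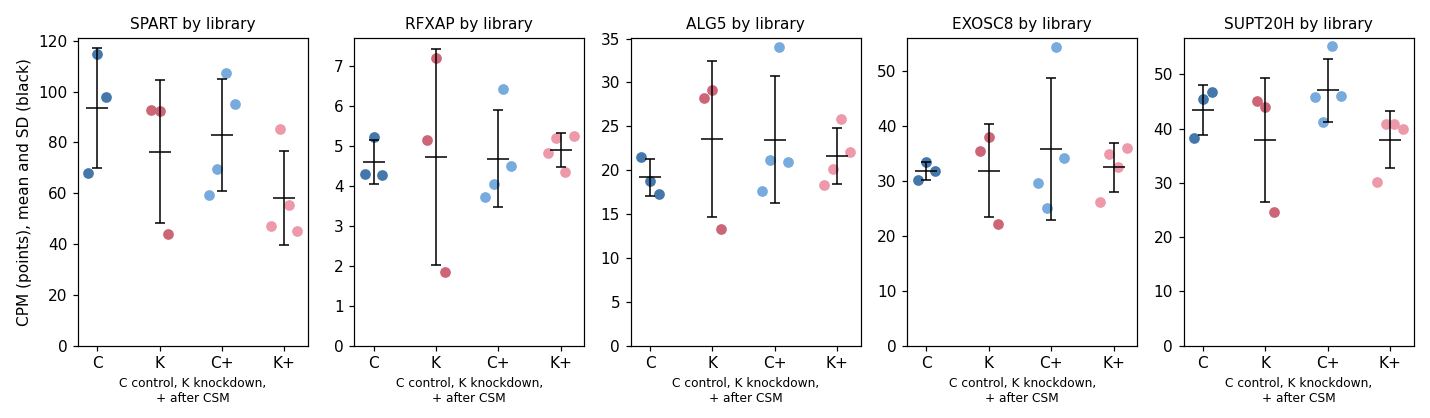
Level of the 5 nearby genes in each library, in CPM on linear axes from 0, with 1 panel per gene; coloured points are libraries, and black marks are the group mean with its SD (n = 3 or 4). Knockdown and control points overlap in every panel in regular medium, and FASN knockdown replicate 3 is the lowest point of all 14 in all 5 panels.

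One library set much of the spread in regular medium. FASN knockdown replicate 3 was the lowest of the 14 libraries for all 5 genes, with a median deviation of -0.73 on the log2 scale from each gene's mean, where the 14519 coding genes tested had a median deviation of -0.14 in the same library. Control CSM replicate 3, one of the 2 libraries rich in 7SL RNA, was the highest by the same measure, at 0.56. Without FASN knockdown replicate 3 the knockdown log2 fold changes in regular medium became 0.00 for SUPT20H, 0.55 for ALG5, 0.18 for EXOSC8, -0.04 for SPART and 0.39 for RFXAP, while those of TRPC4 and POSTN stayed at -6.78 and -5.27. What sets that library apart was not tested.

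The scale also bears on small differences. On log2(TPM + 1) the median of all tested genes itself stood at -0.14 in regular medium and 0.39 after CSM, against 0.02 and 0.01 in the count fit. On that scale the knockdown differences in regular medium were -0.61 for SUPT20H, -0.02 for ALG5, -0.44 for EXOSC8, -0.41 for SPART and -0.28 for RFXAP. After CSM they were 0.37, 0.19, 0.40, 0.29 and 0.51 in the same order, so the sign of SUPT20H, ALG5, EXOSC8 and SPART after CSM, and of ALG5, EXOSC8 and RFXAP in regular medium, depends on the scale. Some of these signs also turned in fits of the counts. After CSM ALG5 and EXOSC8 were at 0.16 and 0.15 with the 7SL share as covariate. Without control CSM replicate 3 they were at 0.12 and 0.14. RFXAP in regular medium was at -0.31 with the 7SL covariate. TRPC4 and POSTN were lower on every scale tried. In all, 2 of the 7 genes in regular medium and 3 of the 7 after CSM had every knockdown library below every control library, where 7.04% and 7.34% of all tested genes did; the members were chosen for this contrast, so nothing is read from the comparison.

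Few other genes near the pair could be tested. Of the 6 tested genes within 1 Mb of POSTN or TRPC4 that are none of the 7, none passed an edgeR adjusted p of 0.05 in either medium, where 0.204% of all tested genes did in regular medium and 1.17% after CSM; their median log2 fold changes were 0.50 and -0.01. At those shares 6 genes would seldom hold a call, so nothing is read from their absence. The 2 noncoding genes that flank the pair are scarce. LINC00547 was at 0.404 ± 0.229 CPM in control and 0.759 ± 0.553 CPM in knockdown libraries (SD, n = 3; log2 fold change 0.92, SE 0.76, edgeR adjusted p = 0.810). LINC02334 was at 2.64 ± 0.751 and 4.09 ± 3.66 CPM (log2 fold change 0.65). The knockdown means in regular medium rest on FASN knockdown replicate 3: without it the log2 fold change was 0.08 (SE 0.85) for LINC00547 and -0.45 (SE 0.66) for LINC02334, which turned sign.

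A list of 31 genes of the region, drawn up by position with earlier results known, held 24 genes besides the 7, of which 19 were tested. In regular medium none of the 19 passed the test, 7 were positive and 12 negative, and their median log2 fold change was -0.12 where that of all genes was 0.02. After CSM all 19 were negative, with a median of -0.36 where all tested genes had 0.01 and coding genes alone -0.16. On log2(TPM + 1) 14 of the same 19 were positive after CSM, with a median of 0.31 below the shift of 0.39 of all genes, so their direction depends on the scale. The list leaves out most noncoding genes of the span: all 41 tested genes within 5 Mb of POSTN or TRPC4 besides the 7 had a median of -0.15 after CSM, with 26 negative and 15 positive.

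FOXO1 was the 1 gene of that list called after CSM (0.74% of all tested genes were called lower after CSM and 0.177% in regular medium). It encodes a forkhead transcription factor restrained by insulin and AKT signalling and lies 2599.5 kb beyond TRPC4. After CSM it was at 44.0, 22.6, 16.8 and 15.1 CPM in control and 8.60, 5.61, 4.10 and 3.84 CPM in knockdown libraries, with no overlap (log2 fold change -2.15, SE 0.36, edgeR adjusted p = 0.0101). Left-out libraries gave adjusted p values of 0.0113 to 0.0487, all under 0.05, but the call was lost on log2(TPM + 1), at a limma adjusted p of 0.276. In regular medium it was at 18.1, 27.3 and 18.5 against 6.62, 10.2 and 11.1 CPM, also with no overlap, but did not pass the test across all genes.

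Over the whole chromosome, the 379 tested genes besides the 7 had median log2 fold changes of -0.03 in regular medium and -0.05 after CSM. The share of them that was called, 0.264% in regular medium and 1.06% after CSM, was near the 0.204% and 1.17% of all tested genes. In regular medium 1 passed the test, STARD13-AS (-5.20), an antisense gene whose reads cannot be told apart from those of STARD13 without strand. After CSM 4 passed: MBNL2 (-1.80) and FOXO1 were lower, LINC00343 (1.00) and an unnamed gene were higher. These names come from looking at the values, other than FOXO1. STARD13-AS lies 4.64 Mb from the TRPC4 start and its change after CSM, -1.49, did not pass the test.

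**Figure D3:**
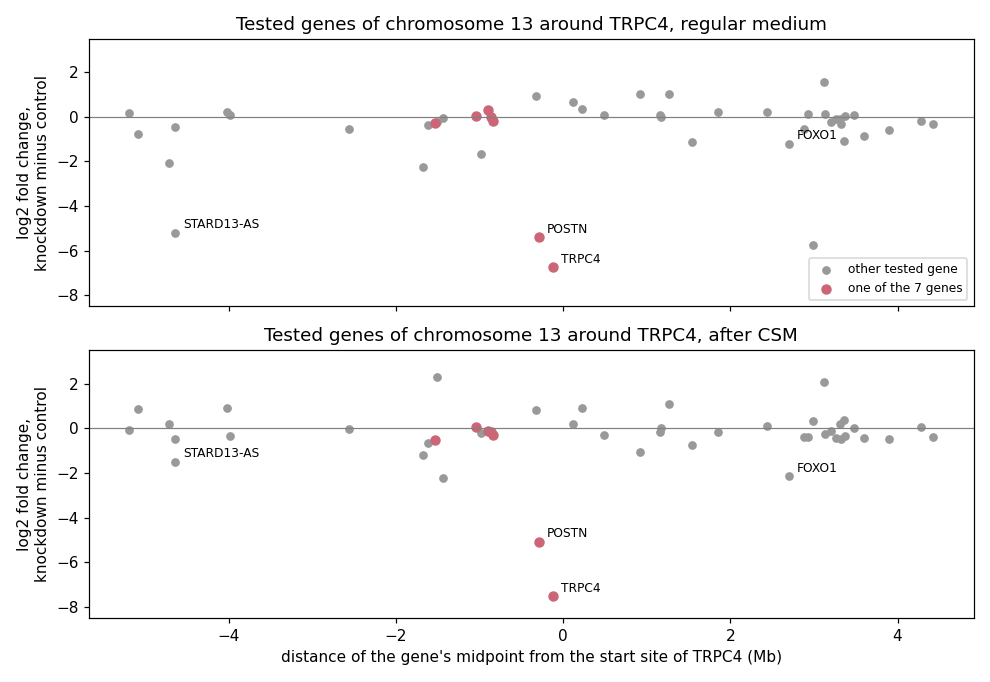
Log2 fold change of knockdown against control (edgeR, y axis) for each tested gene within about 5 Mb, against the distance of the gene's midpoint from the TRPC4 start site in Mb (x axis), in regular medium (top) and after CSM (bottom); red points are the 7 genes and grey points the other tested genes. TRPC4 and POSTN lie at -6.75 and -5.41 above and -7.53 and -5.08 below. The 6 grey points within 1 Mb of the pair lie between -1.66 and 1.02. Farther out, the lowest grey point in regular medium is at -5.77, below POSTN. It is a gene at a mean of 0.197 CPM that did not pass the test and was at 0.34 after CSM.

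Whether CSM moved these genes is a question the choice of genes did not use. No gene of the 22560 passed an edgeR adjusted p of 0.05 for CSM against regular medium (0.0% in control and 0.0% in knockdown cells), with 316 and 1504 genes at an unadjusted p under 0.05 and with 6 and 52 genes called by DESeq2. TRPC4 in control cells was lower after CSM, 8.34 ± 2.30 CPM (SD, n = 4) against 12.8 ± 2.93 CPM (n = 3), and the libraries did not overlap, but the log2 fold change of -0.62 (SE 0.57, 95% interval -1.82 to 0.59) had an edgeR adjusted p of 0.9997.

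POSTN in control cells averaged 18.7 ± 25.0 CPM after CSM and 27.0 ± 19.4 CPM without (log2 fold change -0.52, SE 0.97, interval -2.59 to 1.54, edgeR adjusted p = 0.9997). The interval is wide enough that a large effect in either direction could not be seen, and the value ran from -1.9998 to 0.22 when single libraries were left out. Among the other 5 genes in control cells the CSM log2 fold changes lay between -0.18 (SPART, SE 0.31) and 0.29 (ALG5, SE 0.28). In knockdown cells they lay between -0.39 (SPART, SE 0.31) and 0.07 (RFXAP, SE 0.37), and none passed the edgeR test. Between the media, the knockdown log2 fold change differed (CSM minus regular) by -0.77 (SE 1.10) for TRPC4 and by 0.33 (SE 1.57) for POSTN.

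No partner gene of TRPC4 passed the test. At the shares given below a list of this size would hold few calls or none, so nothing is read from this. Of 26 other genes of TRPC channels and calcium entry 23 were tested, and none was called in either knockdown comparison (edgeR adjusted p under 0.05, against 0.204% and 1.17% of all genes); medians were -0.05 and -0.17, and values in regular medium ran from -0.88 to 0.80. The smallest p in regular medium was that of STIM1, the calcium sensor of the endoplasmic reticulum, at 40.3 ± 3.65 CPM in control and 64.1 ± 14.4 CPM in knockdown libraries (n = 3; log2 fold change 0.67, SE 0.20, edgeR adjusted p = 0.264). After CSM it was that of its relative STIM2 (-0.64, SE 0.29, adjusted p = 0.258), whose sign turned on the TPM scale.

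Of 26 partners, receptors and relatives of periostin 23 were tested, and 1 was called in each medium, where 0.204% of all tested genes were called in regular medium and 1.17% after CSM. COL5A1, a chain of type V collagen, fell in regular medium: 40.9, 55.7 and 39.9 CPM in control and 13.6, 9.32 and 9.66 CPM in knockdown libraries (log2 fold change -2.06, SE 0.35, edgeR adjusted p = 0.0243). After CSM it was at 32.7, 27.3, 28.1 and 30.1 CPM in control and at 28.8, 9.16, 26.7 and 15.4 CPM in knockdown libraries, where the groups overlapped. PTK7, a Wnt-pathway pseudokinase receptor, fell after CSM: 24.1, 34.1, 46.5 and 44.9 CPM against 8.96, 18.3, 18.7 and 16.1 CPM (log2 fold change -1.27, SE 0.27, edgeR adjusted p = 0.0361). Both calls are near the threshold. That of COL5A1 was lost when control replicate 2 or 3 or FASN knockdown replicate 2 or 3 was left out, with adjusted p up to 0.124, and that of PTK7 was lost without any library but control CSM replicate 1, with adjusted p up to 0.101. Neither was called on log2(TPM + 1) (limma adjusted p 0.994 and 0.415). The medians of the list were -0.04 and -0.28.

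No gene was called for knockdown in any of the lists around the other 5 genes (edgeR adjusted p under 0.05). Only 0.204% of all tested genes were called in regular medium and 1.17% after CSM. At those shares lists of this size would hold few calls or none, so nothing is read from their absence. The 14 other RNA exosome genes, all tested, had medians of -0.04 in regular medium and -0.25 after CSM, and the smallest p values were those of EXOSC9 (-0.53, adjusted p = 0.534) and the nuclear cofactor C1D (-1.11, adjusted p = 0.187). The 21 other genes of lipid-linked oligosaccharide synthesis had medians of 0.05 and -0.16, led by the mannosyltransferase ALG1 (0.52, adjusted p = 0.558) and DPM3, a subunit of dolichol-phosphate mannose synthase (-0.84, adjusted p = 0.199). The 18 other SAGA subunits had medians of 0.02 and -0.16, led by the acetyltransferase KAT2B (0.54, adjusted p = 0.480) and TADA3 (-0.43, adjusted p = 0.240, with the sign turned on the TPM scale).

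Of the 12 other genes of the RFX complex and MHC class II only 6 had enough counts to be tested, with medians of 0.05 and -0.28. CD74, the invariant chain, had the smallest p in regular medium (1.07, SE 0.45, edgeR adjusted p = 0.495). RFXANK, the ankyrin partner of RFXAP, was at 25.6, 27.5, 46.4 and 28.0 CPM in control CSM and 16.6, 21.0, 17.1 and 17.8 CPM in knockdown CSM libraries, without overlap, but did not pass the test (-0.81, SE 0.22, edgeR adjusted p = 0.0806), and its sign turned on the TPM scale. The 13 other genes of spartin's partners and endosomal sorting had medians of 0.09 and -0.16. Their smallest p values were those of the ER-shaping GTPase ATL1 (1.07, adjusted p = 0.348) and the lipid droplet coat protein PLIN2 (-1.21, SE 0.31, edgeR adjusted p = 0.0735).

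None of these lists held a gene called for CSM, and neither did the whole table. In control cells the smallest p values belonged to CAV1 (0.56), TNC (0.68), EXOSC1 (0.36), ALG9 (0.34), TAF10 (0.51), HLA-DPA1 (-1.42) and PLIN3 (0.48), given as log2 fold changes, all at an edgeR adjusted p of 0.9997. In knockdown cells they belonged to GNAI2 (-0.64), COL5A1 (0.88), C1D (-0.88), DPM3 (-0.89), TAF5L (-0.41), HLA-DPA1 (-2.04) and CHMP1B (-0.68), with adjusted p values of 0.579 to 0.808.

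The genes whose profiles were nearest to that of TRPC4 lie on other chromosomes, as do most tested genes (386 of the 22560 lie on chromosome 13). Likeness was the root mean square distance between centred log2 CPM profiles over the 14 libraries, among 16152 genes at a mean of at least 1 CPM. The step between control and knockdown libraries, on which TRPC4 and POSTN were chosen, sets most of this distance, so the names are a description. AJAP1, an adherens junction protein gene on chromosome 1, was nearest to TRPC4 at a distance of 0.785, followed by SPANXA1 (0.969), LPAR1 (1.07), TCF21 (1.07) and SVEP1 (1.13). AJAP1 was at 64.5, 31.8 and 21.1 CPM in control and 0.701, 0.339 and 0.204 CPM in knockdown libraries, and after CSM at 22.3, 22.5, 43.2 and 25.8 against 0.473, 0.239, 0.617 and 0.224 CPM. SPANXA1, a cancer-testis gene on the X chromosome with near-identical copies that make its own level uncertain, was at 4.23 to 6.71 CPM in control and 5.94 to 17.5 CPM in control CSM libraries and at 0 counts in all 7 knockdown libraries; within the controls its mean was higher after CSM (11.0 against 5.52 CPM), where that of TRPC4 was lower. LPAR1, a receptor for lysophosphatidic acid, was at 10.5 to 27.8 CPM over the 7 controls and 0 to 0.666 CPM over the knockdown libraries. TCF21, a transcription factor of mesenchymal development, was at 6.69 to 26.1 CPM in controls and 0 to 0.455 CPM in knockdown libraries. SVEP1, a large extracellular matrix protein, was at 3.63 to 13.3 CPM and 0 to 0.491 CPM.

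For POSTN the nearest genes were MTUS1 (1.15), PDE1A (1.16), ADAMTS12 (1.38), LRRC4C (1.47) and GFRA1 (1.47), at larger distances than those found for TRPC4 and again none on chromosome 13. Since few tested genes lie on that chromosome, nothing is read from their absence. MTUS1, which encodes a microtubule-associated protein, shared the low control CSM libraries of POSTN: it was at 2.69 and 0.596 CPM in replicates 1 and 3 and at 10.1 and 11.5 CPM in replicates 2 and 4. GFRA1, a co-receptor for the growth factor GDNF, shared the high control replicate 3, at 36.2 CPM against 2.60 and 3.07 CPM in replicates 1 and 2. PDE1A, a calmodulin-dependent phosphodiesterase, was steadier at 2.23 to 5.53 CPM in controls and 0 to 0.508 CPM in knockdown libraries. ADAMTS12, a secreted metalloprotease, kept 1.08 to 4.77 CPM in the knockdown libraries, below its control range of 8.39 to 75.3 CPM. LRRC4C, a synaptic adhesion protein gene, was at 1.36 to 5.65 CPM and 0.0610 to 0.561 CPM.

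**Figure D4:**
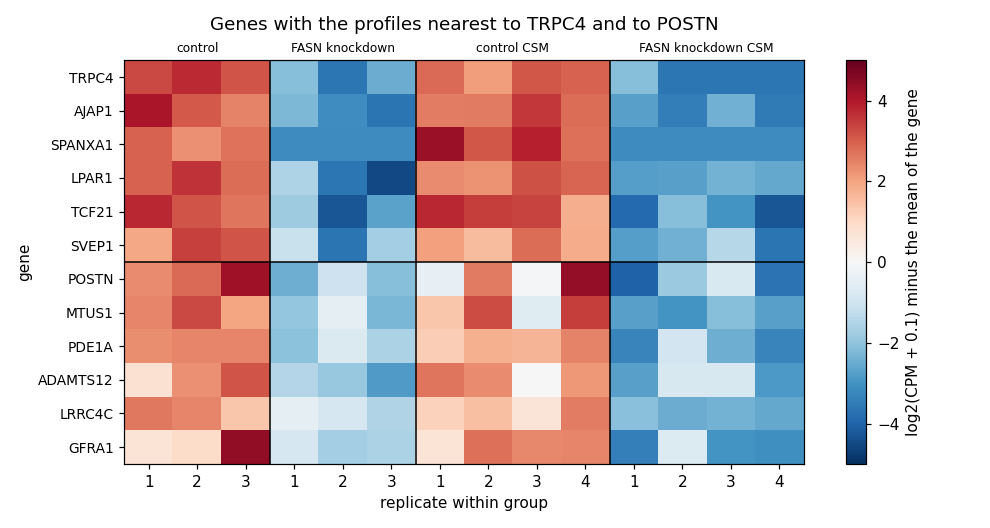
Level of TRPC4 with its 5 nearest genes (top 6 rows) and of POSTN with its 5 nearest (bottom 6 rows) in the 14 libraries, as log2(CPM + 0.1) minus each gene's mean, by colour from low (blue) to high (red); columns are replicates within group. Most controls are red and most knockdown libraries blue in both blocks. Among the exceptions, POSTN is pale in control CSM replicates 1 and 3, where it was at 1.88 and 2.33 CPM. MTUS1 is pale in control CSM replicate 3.

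Among the controls, no relation between the levels of TRPC4 and POSTN was detectable. Over the 7 control libraries of both media Pearson's r of their log2 CPM was 0.079 (exact permutation p = 0.882, two-sided) and Spearman's rho was 0.214 (exact permutation p = 0.662). Without control replicate 2 and control CSM replicate 2, the libraries farthest from the median of TRPC4, r was 0.259 over 5 libraries. Within groups r was -0.54 over 3 control and -0.28 over 4 control CSM libraries, too few for a test. This was the 1 relation computed, so no adjustment applies, and 7 libraries leave even a moderate relation undetectable. Knockdown and control libraries form separate clusters for both genes, so no r over all 14 is given.

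Periostin is mostly known from fibroblasts, so human transcripts that mark fibroblasts and other cell types were read beside it. The human cells engrafted were those of the UMUC3 line, so such transcripts need not come from fibroblasts, vessels or leukocytes. The 15 markers of human fibroblasts and matrix, 11 of them tested, summed to 72.6 to 76.6 CPM in control, 117.5 to 122.5 CPM in knockdown, 83.7 to 125.7 CPM in control CSM and 60.4 to 107.5 CPM in knockdown CSM libraries. For knockdown in regular medium, 6 of the 11 tested markers were positive and 5 negative, with a median log2 fold change of 0.04. The sum was higher in knockdown than in control libraries in that medium, where POSTN was lower. MMP2 (54.8 CPM), ACTA2 (17.9) and THY1 (12.3) made up most of it, while DCN and LUM, the defining matrix proteoglycans of fibroblasts, were at means of 0.289 and 0.0409 CPM and CXCL12 never passed 3 counts. THY1 was the 1 marker of the list that passed the test, lower in knockdown than in control libraries after CSM (log2 fold change -1.64, edgeR adjusted p = 0.0409). That call is near the threshold, and 1.17% of all tested genes were called in the same comparison.

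Endothelial markers (9, with KDR and CLDN5 at 3 counts or fewer) summed to 20.7 to 23.9 CPM in control and 11.3 to 17.0 CPM in knockdown libraries, and to 11.3 to 37.1 and 15.8 to 20.1 CPM after CSM. TIE1, at a mean of 15.3 CPM, made up most of that sum, while PECAM1 was at 1.06 and CDH5 at 0.18 CPM. Myeloid and leukocyte markers (10, among them AIF1 at 3 counts or fewer) summed to 61.8 to 112 and 69.9 to 93.1 CPM, and to 69.0 to 105 and 45.9 to 109 CPM after CSM. Urothelial and epithelial markers (14) summed to 238 to 288 and 199 to 306 CPM, and to 269 to 327 and 185 to 215 CPM after CSM. The part of these sums in the levels of TRPC4 and POSTN was not tested. Only human transcripts were quantified, and reads of the mouse host that resemble human sequence could add to any of these levels.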

How the data were processed

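RNA-seq of 14 xenograft libraries was analysed. Per the submitters' processing notes the authors used FastQC, cutadapt and Salmon with GRCh38 (versions, settings and annotation: not given in the sources used here). Deposited tables give, per transcript, expected counts and TPM as the authors' Salmon run estimated them, for 252048 human transcripts. Expected counts were summed per gene (62749) and rounded; deposited TPM values were summed per gene. CPM is the count divided by the TMM-scaled library size. Genes passing edgeR's filter (minimum count 10, total 15) were fitted in one edgeR 4.0.16 quasi-likelihood model over the 4 groups (R 4.3.3, residual degrees of freedom 10). It held 22560 genes, which were called at a Benjamini-Hochberg adjusted p under 0.05. The model was also run on data simulated from the means and dispersions of these libraries, and nothing above rests on that run. Alternatives were relative log expression factors, DESeq2 1.42.0, no filter, separate fits, a replicate block, limma 3.58.1 on log2(TPM + 1) and log2(TPM + 0.1), 7SL share as covariate, and left-out libraries. Total counts were 15810287 to 45209466, and intervals on counts (95%, exact) cover counting error only. Groups came from the titles. Gene positions came from GENCODE release 29 and promoters from RefSeq (GRCh38.p14), in which all 7 genes had an entry.

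The 7 genes and all lists were chosen with earlier results of these data known. Genes are named by this rule: the 7 genes; called genes of the region list and the nearest tested gene on each side of the pair; from each other list up to 3 called genes per comparison or, with none, the 1 with the smallest p; the 5 nearest profiles of TRPC4 and of POSTN; and FASN. Marker genes are named to describe their lists. The level of 1 marker is not reported here.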

Additional observations from a re-analysis of the deposited data

Results flagged for a closer look

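In groups of 4 libraries, a single library stood apart from the other 3 (Dixon's criterion at 95%) in 7 of the 90 groups screened; chance alone flags about 1 in 20 groups. TRPC4 was at 0.177 CPM in FASN knockdown CSM replicate 1 and at 0 in the other 3 libraries of that group. SUPT20H was low in the same library, at 30.1 CPM. AJAP1 was high in control CSM replicate 3, at 43.2 CPM, and so was RFXANK, at 46.4 CPM; that library is rich in 7SL RNA. GFRA1 was high in FASN knockdown CSM replicate 2, at 0.957 CPM. KAT2B stood apart in control CSM replicate 4, at 28.0 CPM, and TADA3 in FASN knockdown CSM replicate 4, at 49.7 CPM.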

How the results depend on the processing

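TRPC4 and POSTN were lower in knockdown under every alternative run. On log2(TPM + 0.1) and log2(TPM + 1), where low values are compressed, TRPC4 was at -4.44 and -1.70 in regular medium and -3.74 and -1.22 after CSM, and POSTN at -4.49 and -2.48, and -2.85 and -1.57. With single libraries left out TRPC4 ran from -7.25 to -6.42 and from -11.17 to -7.01, and POSTN from -5.90 to -4.64 and from -6.23 to -3.58. The called genes of the 19 neighbours numbered 1 rather than 0 in regular medium without a filter (FOXO1), and after CSM 2 rather than 1 by DESeq2, without a filter and with only the 2 groups fitted (CCNA1 added, adjusted p 0.01198, 0.0161 and 0.0464), and 0 on both TPM scales. The replicate numbers did not pair the libraries (correlations of same-numbered libraries from -0.21 to 0.33); with the replicate block 17 and 59 genes were called for knockdown rather than 46 and 264, and the block ended the calls of COL5A1 (adjusted p 0.0763) and PTK7 (0.101). DESeq2 called 346 and 1452 genes, and limma on log2(TPM + 1) 17 and 59.

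Most signs that turned did so near 0 or on the TPM scale, on which the median of all genes was 0.59 for CSM in knockdown cells. Among the exceptions are SPART, from -0.39, and C1D, from -0.88, which turned with the 7SL covariate. POSTN for CSM in control cells, from -0.52, turned without control replicate 3. LINC02334 for knockdown in regular medium went from 0.65 to -0.45 without FASN knockdown replicate 3. For CSM in knockdown cells POSTN was at 0.015 with the 7SL covariate, 0.23 and 0.089 on the TPM scales (pseudocounts 0.1 and 1), 0.31 without the 7SL-rich libraries and -1.36 to 0.29 with single libraries left out. ALG5 was at 0.35, 0.57, 0.53, 0.055 and -0.36 to 0.036 in the same order. SPART was at 0.25 with the covariate and 0.51 and 0.49 on the TPM scales. EXOSC8 was at -0.013 with the replicate block and -0.13 to 0.15 with libraries left out, and SUPT20H at -0.0094 by DESeq2, -0.011 by relative log expression factors, -0.010 with the block and -0.18 to 0.16 with libraries left out. RFXAP ran from -0.28 to 0.47. In control cells CSM gave POSTN -1.9998 to 0.22 with libraries left out, EXOSC8 -0.10 without the 7SL-rich libraries and -0.11 to 0.30 with single ones left out, and RFXAP -0.084 and -0.049 on the TPM scales, -0.17 without the 7SL-rich libraries and -0.18 to 0.11. On the TPM scales (0.1, then 1) CSM in knockdown cells also turned C1D (0.11, 0.092, and 0.23 with the covariate), CHMP1B (0.29, 0.26), DPM3 (0.13, 0.12), GNAI2 (0.42, 0.41) and TAF5L (0.73, 0.61), and knockdown after CSM turned FASN (0.19, 0.19), RFXANK (0.061, 0.059), STIM2 (0.022, 0.0096) and TADA3 (0.25, 0.24). The correlation of TRPC4 and POSTN ran from -0.024 to 0.251 with libraries left out (-0.0015 without control replicate 2) and was 0.254 on log2(TPM + 1). The cause of these turns was not tested.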
